A study of Mus musculus with 6 samples.

Results

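The hypoxia-inducible factor (HIF) pathway of the kidney was described through 10 of the 57180 genes in the deposited tables. The genes were the 3 alpha subunits Hif1a, Epas1 and Hif3a, the degradation factors Vhl, Egln1, Egln2 and Egln3, and the hypoxia-inducible transcripts Car9, Ndrg1 and Epo. They were taken by name after Ensembl gene identifiers had been matched to mouse symbols, and all 10 were found. Car9 was chosen by its measured expected counts, which were higher in nanoplastic kidneys of these same libraries, so its values are given as a description with no test.

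Whole kidneys of wild-type male C57BL/6J mice were compared between nanoplastic and vehicle, with 3 mice in each group and 1 RNA sequencing library per mouse. The nanoplastic group received cationic polystyrene nanoparticles at 200 mg/kg and the vehicle group deionized water (0 mg/kg). Both were dosed by mouth once a day for 6 weeks, and the mice were 7 weeks old when obtained. A whole kidney mixes tubules, vessels, interstitium and any attached fat or urothelium, and a lower level in such a bulk sample cannot tell fewer cells of a type apart from less RNA per cell.

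HIF is a pair of an oxygen-regulated alpha subunit and a constant partner, Arnt. When oxygen is sufficient, the prolyl hydroxylases encoded by the Egln genes mark the alpha subunit, the von Hippel-Lindau protein binds it, and it is degraded. The main oxygen control therefore acts on the protein, which RNA sequencing does not measure. In the kidney, HIF is best known for switching on erythropoietin in interstitial cells, and for raising glucose uptake, glycolysis and carbonic anhydrase IX where oxygen is short.

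HIF binds DNA at a core whose letters are ACGTG or GCGTG. Promoter windows from RefSeq (build GRCm38.p6), from 250 bases before to 50 bases after a start site, were searched for these letters on both strands. The 2 cores can share bases, and CACGTG reads as ACGTG on both strands. Windows are shown here for Car9, for Egln3 (the hydroxylase gene best known as a HIF target), and for 3 target genes described below, Slc2a1, Pgk1 and Tfrc. Capitals mark every match, and a match on the minus strand reads CACGT or CACGC.
Car9, chr4:43506776-43507075, plus strand: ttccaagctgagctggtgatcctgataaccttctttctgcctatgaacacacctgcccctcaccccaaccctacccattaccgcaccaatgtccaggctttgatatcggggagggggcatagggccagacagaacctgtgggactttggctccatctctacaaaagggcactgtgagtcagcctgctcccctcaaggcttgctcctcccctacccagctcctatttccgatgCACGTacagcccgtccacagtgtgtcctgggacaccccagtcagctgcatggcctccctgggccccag
Egln3, chr12:54203825-54204124, minus strand: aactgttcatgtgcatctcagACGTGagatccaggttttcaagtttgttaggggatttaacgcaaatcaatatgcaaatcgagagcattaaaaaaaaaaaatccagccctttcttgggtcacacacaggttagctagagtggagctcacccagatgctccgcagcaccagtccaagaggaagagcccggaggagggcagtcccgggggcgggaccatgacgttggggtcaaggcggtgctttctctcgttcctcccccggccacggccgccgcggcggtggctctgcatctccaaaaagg
Slc2a1, chr4:119108495-119108794, plus strand: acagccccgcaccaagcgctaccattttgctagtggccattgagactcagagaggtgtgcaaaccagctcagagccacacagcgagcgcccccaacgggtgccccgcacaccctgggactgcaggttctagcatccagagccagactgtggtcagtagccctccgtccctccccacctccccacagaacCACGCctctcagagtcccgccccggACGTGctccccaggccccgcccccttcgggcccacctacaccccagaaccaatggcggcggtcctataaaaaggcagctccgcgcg
Pgk1, chrX:106186850-106187149, plus strand: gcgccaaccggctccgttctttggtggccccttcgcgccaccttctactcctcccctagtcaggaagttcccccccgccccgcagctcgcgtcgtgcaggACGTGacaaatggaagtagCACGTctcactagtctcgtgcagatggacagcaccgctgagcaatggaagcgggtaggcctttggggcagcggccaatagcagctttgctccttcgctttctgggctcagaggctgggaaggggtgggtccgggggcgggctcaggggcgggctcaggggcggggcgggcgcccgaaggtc
Tfrc, chr16:32608646-32608945, plus strand, the first of 2 listed start sites: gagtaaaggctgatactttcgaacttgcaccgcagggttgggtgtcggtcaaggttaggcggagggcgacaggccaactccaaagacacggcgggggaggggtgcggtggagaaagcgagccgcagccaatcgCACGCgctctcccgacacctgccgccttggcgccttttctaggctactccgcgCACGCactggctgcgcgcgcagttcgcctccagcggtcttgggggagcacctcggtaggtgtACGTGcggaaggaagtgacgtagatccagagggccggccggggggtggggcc

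The Car9 window held 1 match, an ACGTG core on the minus strand whose first base in the window lay at -18 from the start. Egln3 also had 1 match, at -229 on the plus strand. Slc2a1 had a GCGTG core at -61 and an ACGTG core at -36, and Pgk1 had ACGTG cores at -150 and -131. Of the 10 genes, 8 had a RefSeq window and 7 held a match on either strand. Among 46 known hypoxia targets described below, 36 had a window and 31 held a match. A gene was counted if any of its windows matched, with 9 windows for the 8 genes and 55 for the 36 targets. The same letters stood in 43.77% of all 32851 RefSeq windows of 300 bases, ACGTG in 19.62% and GCGTG in 32.39%, so a match describes a window and is not evidence of binding.

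The nanoplastic libraries held 19408534 to 23793640 expected counts in all and the vehicle libraries 23420454 to 26292760, and 25597 to 26578 genes had a count in the nanoplastic libraries, against 25537 to 26378 in the vehicle libraries. The proximal tubule receptor gene Lrp2 measured 7197 to 8684 CPM (counts scaled to library size) in nanoplastic and 8409 to 8748 CPM in vehicle, as the kidney label implies. Of the 10 genes 8 passed the filter on low counts, and Hif3a and Epo did not. edgeR's quasi-likelihood test with Benjamini-Hochberg adjustment called 0 of 18092 genes at an adjusted p under 0.05 (0%), and limma-voom also called 0 (0%). DESeq2 called 56 of the 12153 genes to which it gave an adjusted p (0.461%), none of them among the 7 genes other than Car9 that passed the filter. At an unadjusted p under 0.05 edgeR had 1342 genes (7.42%), of which 688 were higher (3.8%) and 654 lower (3.61%) in nanoplastic. The groups did not overlap in CPM for 12.9% of genes, 6.54% higher and 6.32% lower in nanoplastic.

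On a per-length scale, Ndrg1 was by far the most abundant of the 10, with a mean of 271.8 TPM (length-scaled transcript share) over the 6 libraries. Epas1, Egln2 and Hif1a followed at 13.6, 12.8 and 12.3 TPM, and their ranges over libraries overlapped. Egln1 averaged 6.33 TPM and Vhl 5.53 TPM, again with overlapping ranges, and the range of Car9 (mean 3.40 TPM) reached into that of Vhl. Egln3 averaged 1.65 TPM, Hif3a 0.065 TPM and Epo 0.037 TPM. Ranges of neighbours in this order lay apart at 4 steps, from Ndrg1 to Epas1, from Hif1a to Egln1, from Car9 to Egln3 and from Egln3 to Hif3a.

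**Figure D1:**
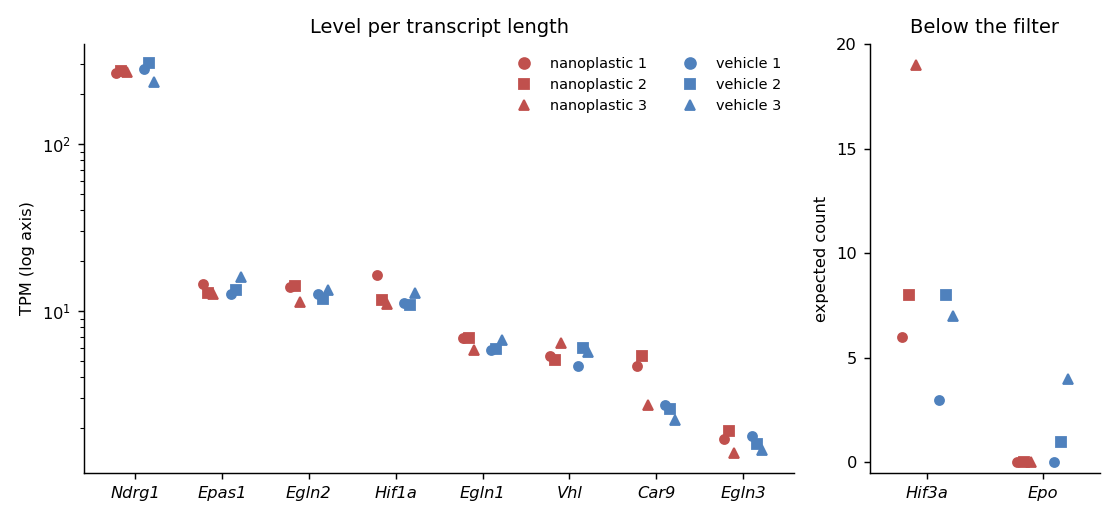
Levels of the 10 genes in each library. The left panel plots TPM on a log axis for the 8 genes above the count filter, and the right panel plots expected counts for Hif3a and Epo. Ndrg1 stands at 234.9 to 303.6 TPM in every library, while Egln3 stays between 1.40 and 1.90 TPM. Red marks nanoplastic and blue marks vehicle.

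The TPM order depends on the transcript length that the authors' quantification assigned in each library. Hif3a had an effective length of 852 bases in nanoplastic 2 and of 5328 to 6206 bases in the other 5 libraries, so 8 counts there gave 0.22 TPM while 6 counts in nanoplastic 1 gave 0.02 TPM. Vhl varied between 1758 and 2587 bases. Comparisons between the groups below therefore use CPM.

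Among the alpha subunits, neither of the 2 abundant ones differed between the groups beyond the threshold. Hif1a, the broadly expressed HIF-1 subunit, measured 111, 84.4 and 81.7 CPM in nanoplastic kidneys, against 82.0, 88.9 and 86.4 CPM in vehicle kidneys. Nanoplastic 1 alone was high, and the other 2 nanoplastic kidneys lay within or just below the vehicle range, so the groups overlapped. The log2 fold change was 0.11 (SE 0.11, 95% interval -0.13 to 0.34, edgeR adjusted p = 0.837), and without nanoplastic 1 it was -0.04. The annotation places Gm15283 on the opposite strand across part of Hif1a, and reads of the 2 cannot be told apart if strand was not kept, but Gm15283 reached only 0.26 to 2.15 CPM over the 6 libraries.

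Epas1, which encodes the HIF-2 alpha subunit of endothelial and interstitial cells, measured 120.2, 113.6 and 126.6 CPM in nanoplastic kidneys, against 133.0, 127.3 and 137.4 CPM in vehicle kidneys. All 3 nanoplastic kidneys lay below all 3 vehicle kidneys, by a narrow margin between nanoplastic 3 and vehicle 2. The log2 fold change was -0.14 (SE 0.06, 95% interval -0.29 to 0.001), with an unadjusted p of 0.0515 and an edgeR adjusted p of 0.674. Epas1 was the 1 gene of the 7 tested whose groups lay apart in either direction. Of all genes, 12.9% had groups apart in either direction and 6.32% in this one. Leaving out each library in turn gave log2 fold changes from -0.18 to -0.10. In TPM the groups overlapped, at 14.5, 12.7 and 12.7 TPM in nanoplastic kidneys and 12.6, 13.3 and 15.9 TPM in vehicle kidneys.

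The ratio of Epas1 to Hif1a in TPM was 0.887, 1.09 and 1.15 in nanoplastic kidneys, against 1.13, 1.23 and 1.24 in vehicle kidneys. In TPM, Hif1a exceeded Epas1 in nanoplastic 1 alone, while in CPM the ratio was above 1 in all 6 libraries, at 1.08 in nanoplastic 1. Hif3a, whose product can restrain the other alpha subunits, was rare, with 6, 8 and 19 expected counts in nanoplastic kidneys and 3, 8 and 7 in vehicle kidneys. Nanoplastic 3 was the highest library, the groups overlapped, and the gene was below the filter and was not tested.

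The groups overlapped for every gene of the degradation arm. Vhl, the substrate receptor of the ubiquitin ligase that removes the alpha subunits, measured 23.6, 23.0 and 23.0 CPM in nanoplastic kidneys and 24.1, 24.5 and 21.5 CPM in vehicle kidneys. The nanoplastic values all lay inside the vehicle range. The fold was 0.992 with a 95% interval of 0.878 to 1.12 (edgeR adjusted p = 0.985).

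Egln1, the main oxygen sensor among the prolyl hydroxylases, measured 41.7, 41.9 and 40.1 CPM in nanoplastic kidneys, against 39.6, 41.8 and 41.3 CPM in vehicle kidneys. Its fold of 1.01 had a 95% interval of 0.914 to 1.11. Egln2, the hydroxylase that does not depend on hypoxia for its own expression, measured 44.6, 46.1 and 42.5 CPM in nanoplastic kidneys and 46.9, 45.2 and 44.9 CPM in vehicle kidneys. Its fold was 0.973 with a 95% interval of 0.880 to 1.07. Both genes overlapped between the groups, with edgeR adjusted p values of 0.975 and 0.908.

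Egln3, the hydroxylase gene that HIF itself raises, measured 7.55, 8.43 and 7.02 CPM in nanoplastic kidneys, against 8.81, 8.19 and 6.59 CPM in vehicle kidneys. The vehicle kidneys held both the highest and the lowest library. The fold was 0.977 with a 95% interval of 0.788 to 1.21 (edgeR adjusted p = 0.971). In TPM, Egln2 exceeded Egln1 by 1.94 to 2.06 times in the nanoplastic kidneys and by 1.99 to 2.15 times in the vehicle kidneys, and Egln1 exceeded Egln3 in all 6.

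**Figure D2:**
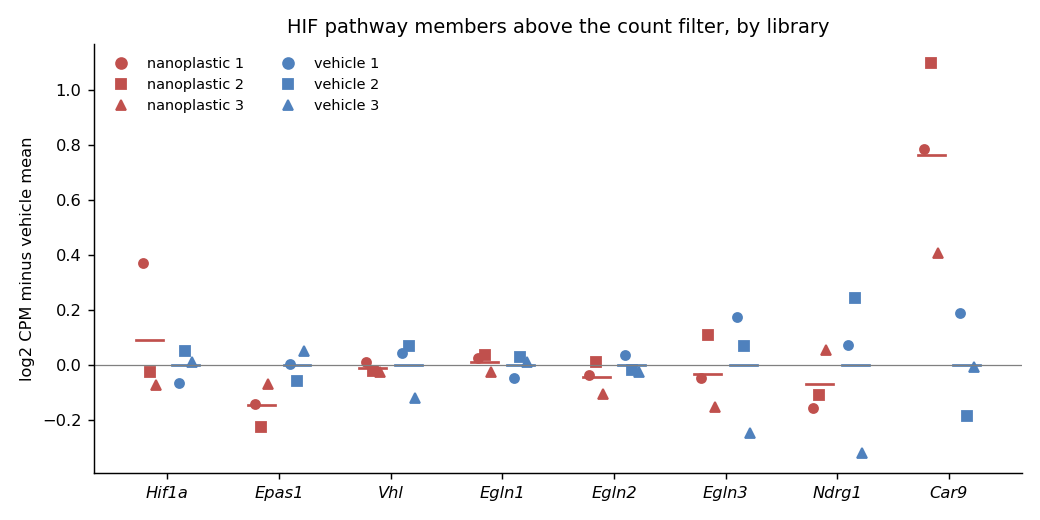
Log2 CPM of each library minus the vehicle mean, for the 8 genes above the count filter. Points are libraries (red nanoplastic, blue vehicle), short lines are group means and the grey line is the vehicle mean. The red points of Car9, which was chosen for this, lie above all blue points, those of Epas1 lie below all blue points, and the remaining 6 genes overlap.

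Of the 3 hypoxia-inducible transcripts, Car9 was higher in nanoplastic by the way it was chosen, Ndrg1 overlapped between the groups and Epo was at the detection limit. Car9 encodes carbonic anhydrase IX, a membrane enzyme that acidifies the outside of hypoxic cells. It measured 11.5, 14.2 and 8.84 CPM in nanoplastic kidneys, against 7.60, 5.85 and 6.63 CPM in vehicle kidneys. Nanoplastic 2 was the highest library, and the lowest nanoplastic kidney stood above the highest vehicle kidney. The means were 11.52 ± 2.697 CPM in nanoplastic and 6.69 ± 0.875 CPM in vehicle (SD, n = 3 each), a fold of 1.73 or a log2 fold change of 0.79.

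These levels rest on 283, 341 and 170 expected counts in nanoplastic kidneys and 195, 135 and 156 in vehicle kidneys. Leaving out each library in turn gave log2 fold changes of 0.61, without nanoplastic 2, to 0.94, without nanoplastic 3. In TPM, nanoplastic 3 and vehicle 1 both stood at 2.74, so the groups touched on that scale, where nanoplastic kidneys had 4.70, 5.40 and 2.74 TPM and vehicle kidneys 2.74, 2.58 and 2.22 TPM.

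The gene Gm12454 lies on the opposite strand across Car9, and the sources used here do not say whether the libraries keep strand, so reads of the pair cannot be told apart. Gm12454 measured 3.57, 5.26 and 4.99 CPM in nanoplastic kidneys, against 3.39, 3.17 and 3.19 CPM in vehicle kidneys. Its groups lay apart, with the lowest nanoplastic kidney just above the vehicle range, where 6.54% of all genes lay apart in that direction. The log2 fold change was 0.49 (SE 0.19, edgeR adjusted p = 0.611). Since its counts may include reads of Car9, this separation may not be independent of the choice of Car9. The sum of both genes was 15.1, 19.5 and 13.8 CPM in nanoplastic kidneys and 11.0, 9.02 and 9.81 CPM in vehicle kidneys. Nanoplastic 2 remained the highest library for the sum, and the groups stayed apart. Car9, chosen for its level, had more counts than Gm12454 in every library. That choice therefore came close to fixing this outcome.

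Ndrg1, a cytoplasmic protein gene that hypoxia and differentiation raise, overlapped between the groups. It measured 1238, 1279 and 1431 CPM in nanoplastic kidneys, against 1450, 1634 and 1104 CPM in vehicle kidneys. Vehicle 3 was the lowest library of all and vehicle 2 the highest, so the nanoplastic range lay inside the vehicle range. The fold was 0.943 with a 95% interval of 0.775 to 1.15 (edgeR adjusted p = 0.896). Without vehicle 2 the log2 fold change was 0.04, against -0.09 with all libraries. Antisense and bidirectional genes overlap Ndrg1 in the annotation, so the same limit on strand holds for it.

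Epo, the hormone that drives red cell production, had 0, 0 and 0 expected counts in nanoplastic kidneys and 0, 1 and 4 in vehicle kidneys. A count of 0 over the nanoplastic group allows up to 3 counts, counting error only, and the 5 vehicle counts came mainly from vehicle 3. A difference was not detectable at this depth, and no fold is given. Other genes overlap the annotated span of Epo, which adds to the uncertainty of so few counts.

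The likeness of Car9 to other transcripts was described over the 6 libraries. The Pearson correlation of its log2 CPM with that of other genes, given as a description, was 0.27 for Hif1a, -0.85 for Epas1, 0.20 for Egln3 and -0.34 for Ndrg1. The 4 named genes most like it among 12795 ranked were Crebrf, a regulator of CREB3-type factors, at 0.995, the formin Fhod3 at 0.988, Fam221a at 0.988, and the selenophosphate synthetase gene Sephs2 at 0.978. With 6 points that share tissue, depth and group, 183 genes exceeded 0.9. Crebrf measured 141.5, 152.6 and 127.7 CPM in nanoplastic kidneys, against 124.5, 113.6 and 115.7 CPM in vehicle kidneys, so it ranked the 6 libraries in the same order as Car9.

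Markers of other cell types stand beside the Car9 values here. The inner medulla and papilla list had summed CPM of 416 to 795.5 in nanoplastic and 494.5 to 681.8 in vehicle, with 4 of its 5 genes positive. Its water channel Aqp4 measured 82.8, 63.9 and 36.3 CPM in nanoplastic kidneys, against 31.0, 31.5 and 27.7 CPM in vehicle kidneys (log2 fold change 1.03, SE 0.22, edgeR adjusted p = 0.319). Aqp4 lay apart between the groups, as Car9 did, but was highest in nanoplastic 1. Its correlation with Car9 was 0.87, rank 282 of 12795 genes. Aqp4 was the 1 gene of its list with groups apart, where 12.9% of all genes lay apart in either direction and 6.54% in that one. The others overlapped, with log2 fold changes of 0.04 for Slc14a2, 0.48 for Fxyd4, 0.87 for Akr1b3 and -0.22 for Slc5a3. The part of tissue sampling in the Car9 difference was not tested.

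**Figure D3:**
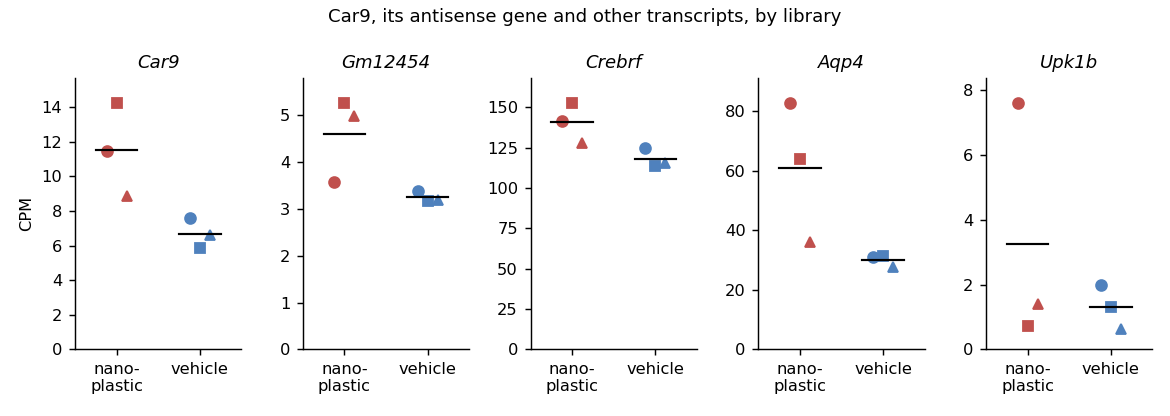
CPM per library of Car9, its antisense gene Gm12454, Crebrf (the transcript most like Car9), the inner medullary water channel Aqp4 and the urothelial gene Upk1b, with axes from 0. Circles, squares and triangles are replicates 1, 2 and 3 and black lines are group means. Car9 and Crebrf are highest in nanoplastic 2, whereas Aqp4 and Upk1b are highest in nanoplastic 1.

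Nanoplastic 1 also carried urothelial and adipocyte transcripts. The 7 urothelial markers summed to 37.5 CPM in nanoplastic 1, 4.34 in nanoplastic 2 and 3.33 in nanoplastic 3, against 2.46 to 9.63 CPM in vehicle kidneys. The 6 adipocyte markers summed to 144, 33.4 and 30.7 CPM in nanoplastic kidneys and 31.7, 38.4 and 60.0 CPM in vehicle kidneys. Outside nanoplastic 1 and vehicle 3, Fabp4 made up nearly all of that sum. It measured 33.3 CPM in nanoplastic 2, 30.6 in nanoplastic 3, 31.6 in vehicle 1 and 38.1 in vehicle 2. Without nanoplastic 1 the log2 fold change of Car9 was 0.80, and without nanoplastic 1 and vehicle 3 it was 0.79. Car9 was chosen for its level in these same libraries, which fixes the direction of both values. The part of urothelium and fat in the Car9 values was not tested. The adipocyte hormone gene Adipoq had 444 counts in nanoplastic 1 and 130 in vehicle 3, and at most 2 in any other library. Gastric markers, as a control for unrelated tissue, were at or near 0, with Gkn1 and Gkn2 at 0 in every library and Tff1 and Muc5ac summing to at most 0.447 CPM.

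The partners and regulators of HIF showed little difference between the groups. All 13 listed genes passed the filter, with 4 log2 fold changes positive and 9 negative, a median of -0.04 against 0.01 over all genes, and none past the adjusted threshold. Cul2, the cullin scaffold of the Vhl ligase, measured 40.9, 40.8 and 39.2 CPM in nanoplastic kidneys, against 46.1, 46.9 and 45.9 CPM in vehicle kidneys. Its groups lay well apart for their spread, lower in nanoplastic (log2 fold change -0.20, SE 0.06, edgeR adjusted p = 0.541), and it was the 1 gene of the 13 with an unadjusted p under 0.05, where 7.42% of all genes had one. P4htm, a membrane-bound prolyl hydroxylase related to the Egln enzymes and named here after its values were seen, was the other gene with groups apart, where 12.9% of all genes were apart, at 1.79, 1.71 and 1.66 CPM in nanoplastic kidneys and 2.14, 2.08 and 1.87 CPM in vehicle kidneys.

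Hif1an, the asparagine hydroxylase that limits HIF activity, had a log2 fold change of 0.13 (SE 0.08, edgeR adjusted p = 0.746). Siah2, a ubiquitin ligase that removes Egln proteins, had -0.17 (SE 0.12, edgeR adjusted p = 0.775). The constant partner Arnt measured 25.38, 25.88 and 29.17 CPM in nanoplastic kidneys and 26.03, 28.18 and 27.45 CPM in vehicle kidneys, with overlapping groups.

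Among 18 HIF targets of glucose uptake and glycolysis, the glucose transporter leaned one way and several enzymes the other, none past the adjusted threshold. Slc2a1, the glucose transporter GLUT1, measured 29.5, 27.4 and 27.8 CPM in nanoplastic kidneys, against 25.1, 23.3 and 24.7 CPM in vehicle kidneys. All nanoplastic kidneys lay above all vehicle kidneys (log2 fold change 0.21, SE 0.07, edgeR adjusted p = 0.594), and it was the 1 gene of the 18 with groups apart in that direction (6.54% of all genes). Its correlation with Car9 over the 6 libraries was 0.84, rank 424 of 12795 genes. Both genes split by group, Car9 by the way it was chosen, so the value is a description only.

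Pgk1, which encodes phosphoglycerate kinase, measured 419.7, 453.1 and 467.9 CPM in nanoplastic kidneys, against 542.7, 553.6 and 484.8 CPM in vehicle kidneys. Pgam1, which encodes the next enzyme, phosphoglycerate mutase, measured 193.4, 207.1 and 216.5 CPM in nanoplastic kidneys, against 233.7, 246.7 and 235.2 CPM in vehicle kidneys. Both lay apart, lower in nanoplastic. Their log2 fold changes were -0.24 (SE 0.08) for Pgk1 and -0.21 (SE 0.06) for Pgam1, with edgeR adjusted p values of 0.541 and 0.533. With Eno1, 3 of the 18 genes of the list lay apart and lower in nanoplastic (6.32% of all genes).

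At an unadjusted p under 0.05 the glycolytic list had 1 gene higher, Slc2a1, and 5 lower, Pgk1, Pgam1, Eno1, Pfkp and Ldha, the last 3 named after their values were seen, where all genes had 3.8% higher and 3.61% lower. The balance turned with 1 library, since without nanoplastic 3 there were 4 higher and 3 lower, and library size alone gave 1 higher and 2 lower. The median log2 fold change of the list was -0.01. Hk2, the hexokinase that HIF raises, had the list's largest value (log2 fold change 0.98, edgeR adjusted p = 0.717). It rested on nanoplastic 1, with 3.09, 1.13 and 0.676 CPM in nanoplastic kidneys and 0.468, 0.954 and 1.19 CPM in vehicle kidneys. Pfkfb3, a regulator of glycolytic flux, had the same shape, at 18.4, 10.4 and 8.11 CPM in nanoplastic kidneys and 9.43, 9.02 and 10.2 CPM in vehicle kidneys. Nanoplastic 1 is the library highest in the urothelial and adipocyte markers given above, whose part in these values was not tested. Vehicle 3 also carried adipocyte transcripts.

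The 28 other hypoxia targets had 9 positive and 19 negative log2 fold changes with a median of -0.08, where 51.97% of all genes were positive. None passed the adjusted threshold in edgeR, 5 had an unadjusted p under 0.05, all lower in nanoplastic (3.61% of all genes), and 7 had groups apart, also all lower (6.32% of all genes). Tfrc, the transferrin receptor that takes iron into cells, measured 110.5, 108.1 and 110.1 CPM in nanoplastic kidneys, against 142.4, 154.3 and 136.6 CPM in vehicle kidneys. The nanoplastic kidneys were nearly equal and well below the vehicle kidneys. The log2 fold change was -0.40 (SE 0.06, edgeR adjusted p = 0.208). DESeq2 gave an adjusted p of 0.000166 for Tfrc, and over its alternatives the adjusted p ran from 0.000166 to 0.9488.

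Plod2, a lysyl hydroxylase of collagen, measured 37.3, 38.0 and 36.8 CPM in nanoplastic kidneys, against 45.9, 57.9 and 44.7 CPM in vehicle kidneys. Its groups lay apart, with vehicle 2 highest (log2 fold change -0.40, SE 0.10, edgeR adjusted p = 0.394). DESeq2 gave an adjusted p of 0.0467, the lowest over its alternatives, which reached 0.9995. Loxl2, a collagen crosslinking oxidase, measured 8.69, 9.98 and 9.05 CPM in nanoplastic kidneys and 11.2, 12.8 and 11.9 CPM in vehicle kidneys, again apart and lower in nanoplastic (log2 fold change -0.37, SE 0.11, edgeR adjusted p = 0.501).

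The remaining 2 with an unadjusted p under 0.05, named after their values were seen, were the collagen prolyl hydroxylase gene P4ha1 and the heme oxygenase gene Hmox1. Hmox1 measured 12.6, 12.7 and 14.5 CPM in nanoplastic kidneys, against 15.7, 18.7 and 16.1 CPM in vehicle kidneys, so its groups lay apart. P4ha1 measured 58.11, 62.08 and 75.66 CPM in nanoplastic kidneys and 68.74, 94.86 and 81.02 CPM in vehicle kidneys, and overlapped. The classic angiogenic target Vegfa overlapped too, at 118.5, 133.1 and 123.5 CPM in nanoplastic kidneys and 116.1, 106.5 and 129.7 CPM in vehicle kidneys.

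Over both target lists, 46 of 46 genes passed the filter, with 1 higher and 10 lower at an unadjusted p under 0.05 in nanoplastic, where all genes had 3.8% higher and 3.61% lower. Without nanoplastic 1 there were 0 higher and 8 lower, without nanoplastic 3, 5 higher and 8 lower, and without vehicle 2, 0 higher and 6 lower. Groups lay apart for 1 gene higher and 10 lower, where all genes had 6.54% higher and 6.32% lower. Interstitial fibroblast and pericyte markers, of cells that make collagen, summed to 300.6 to 394.6 CPM in nanoplastic and 382.8 to 510.6 CPM in vehicle. Nt5e, which proximal tubule cells also express, made up the largest part of that sum in every library. It was the 1 gene of its list with groups apart, lower in nanoplastic (12.9% of all genes in either direction, 6.32% lower). The log2 fold changes were -0.06 for Pdgfrb, -0.0009 for Pdgfra, -0.23 for Dcn and -0.19 for Gucy1a1, with overlapping groups. The part of interstitial cells in the collagen-modifying genes was not tested.

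**Figure D4:**
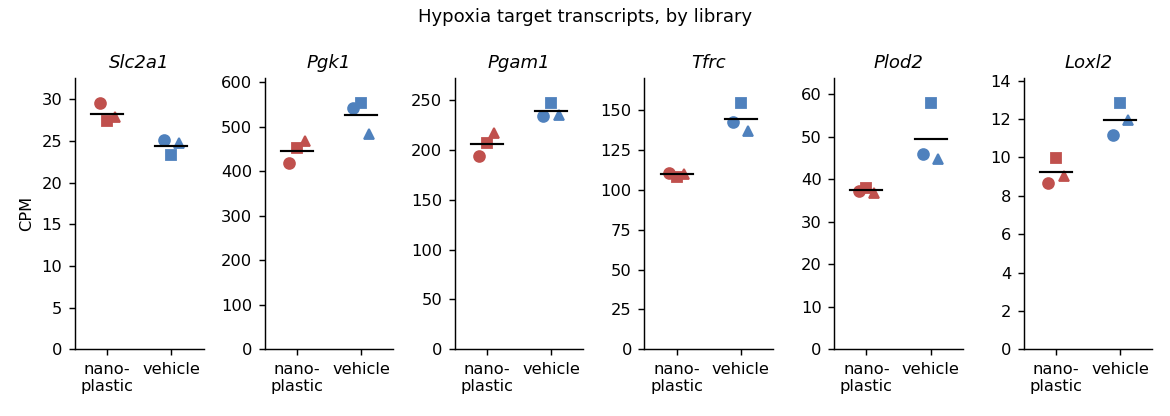
CPM per library of 6 hypoxia target genes, with axes from 0. Circles, squares and triangles are replicates 1, 2 and 3 (red nanoplastic, blue vehicle) and black lines are group means. Slc2a1 is higher in all nanoplastic kidneys, while Pgk1, Pgam1, Tfrc, Plod2 and Loxl2 are lower in all of them.

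The erythropoietin axis was represented by the receptor, transcription factors of the Epo gene and the signalling proteins behind the receptor. Of 9 listed genes 8 passed the filter, with 4 positive and 4 negative and a median log2 fold change of 0.02, and Gata4 was below it. Rcor1, a corepressor that works with GATA factors, measured 35.0, 38.4 and 41.9 CPM in nanoplastic kidneys, against 43.3, 44.7 and 48.1 CPM in vehicle kidneys. Its groups lay apart, lower in nanoplastic (log2 fold change -0.24, SE 0.08, edgeR adjusted p = 0.588), and it was the 1 gene of the 8 with an unadjusted p under 0.05 (7.42% of all genes). Epor, the receptor, measured 3.94, 1.34 and 0.52 CPM in nanoplastic kidneys and 1.13, 0.607 and 1.06 CPM in vehicle kidneys. Its log2 fold change of 1.11 (SE 0.59, edgeR adjusted p = 0.708) was 0.05 without nanoplastic 1.

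Gata3, a factor that can repress Epo, had a log2 fold change of 0.45 (SE 0.24, edgeR adjusted p = 0.717), which ran from 0.27 without nanoplastic 1 to 0.72 without vehicle 3. Red cell transcripts stood beside these values, with all 5 erythrocyte markers negative at a median log2 fold change of -0.49. Their summed CPM was 487.6 to 625.8 in nanoplastic and 579.2 to 860.5 in vehicle. All 5 were lower at an unadjusted p under 0.05 (3.61% of all genes) and none passed the adjusted threshold (lowest edgeR adjusted p = 0.394). Tfrc is abundant in immature red cells, and their part in its difference was not tested.

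In the carbonic anhydrase family, of 15 other carbonic anhydrase genes 12 passed the filter, 6 positive and 6 negative with a median log2 fold change of -0.004. Car6 and Car10 were at 0 in every library, and Car1 had 1 count in all. None of these 12 had groups apart, where 12.9% of all genes did and Car9 was chosen for its level. Car4, the membrane enzyme of the proximal tubule and thick limb, was the 1 of 12 with an unadjusted p under 0.05 (7.42% of all genes), at 60.1, 74.3 and 56.4 CPM in nanoplastic kidneys and 73.6, 77.5 and 76.8 CPM in vehicle kidneys (log2 fold change -0.25, SE 0.09, edgeR adjusted p = 0.607).

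Car12, the other membrane enzyme that hypoxia can raise, measured 187.5, 208.3 and 227.7 CPM in nanoplastic kidneys, against 209.1, 203.3 and 224.2 CPM in vehicle kidneys. The nanoplastic kidneys spanned the vehicle range (log2 fold change -0.03, SE 0.08, edgeR adjusted p = 0.951). Car2, the cytosolic enzyme of acid-base handling, had a log2 fold change of -0.11 (SE 0.09), Car14 0.05 (SE 0.11), Car15 -0.05 (SE 0.09) and the mitochondrial Car5b 0.02 (SE 0.07). The rare genes Car5a, Car7, Car11 and Car13 averaged under 3 CPM in both groups, with log2 fold changes of -0.21 for Car5a, -0.28 for Car7, 0.81 for Car11 and 0.08 for Car13. Car7 ran from -0.54 without nanoplastic 1 to -0.019 without nanoplastic 2, and Car11 from 0.31 without vehicle 3 to 1.85 without vehicle 1.

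Car3, which is abundant in fat and muscle, measured 110.6, 29.8 and 24.7 CPM in nanoplastic kidneys and 36.6, 41.0 and 52.4 CPM in vehicle kidneys. Nanoplastic 1 was high and the other 2 nanoplastic kidneys were below all vehicle kidneys, and without nanoplastic 1 the log2 fold change was -0.66, against 0.36 with all libraries. Car8 measured 16.6, 7.47 and 5.46 CPM in nanoplastic kidneys and 7.64, 7.28 and 6.08 CPM in vehicle kidneys, with a log2 fold change of 0.52 that was -0.10 without nanoplastic 1. In the Ndrg family, Ndrg2 and Ndrg3 both had log2 fold changes of -0.04 (SE 0.07 each). Ndrg4 measured 11.6, 0.918 and 0.728 CPM in nanoplastic kidneys and 1.64, 1.34 and 1.02 CPM in vehicle kidneys, so its log2 fold change of 1.79 (SE 0.89, edgeR adjusted p = 0.696) came from nanoplastic 1 and was -0.68 without it.

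**Figure D5:**
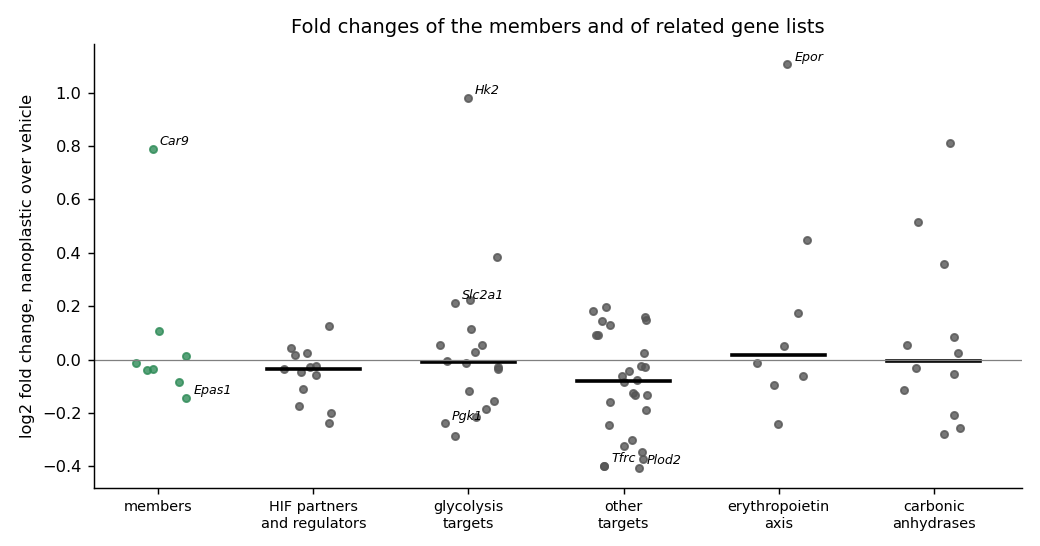
Log2 fold changes, nanoplastic over vehicle, of the 8 HIF pathway genes above the filter and of 5 related gene lists. Each point is a gene, black bars are list medians and labels name single genes. Car9, chosen for its level, lies at 0.79 and the 7 others of its group between -0.14 and 0.11, while the list medians lie between -0.08 and 0.02.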

How the data were processed

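Kidney RNA of 6 separate mice was sequenced, 1 library each. The submitters' processing notes name STAR 2.7.9a, RSEM 1.3.3, Trim Galore 0.6.6, FastQC and build GRCm39. Neither annotation release nor strandedness is given in the sources used here. Expected counts per gene were deposited without normalization, and RSEM can split reads that match several genes into values that are not whole. TPM was deposited by the authors per transcript length, and in it Rn7s1 and Rn7s2 take 55.5% to 59.4% of a library, so it was used for order between genes and for an alternative.

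Symbols came from GENCODE vM21 (51884 identifiers by gene, 738 by transcript), and overlaps between genes from the same annotation, which is on another build, so no coordinates of the files are given. Promoter windows are RefSeq's. Where several identifiers had 1 symbol, the one with most counts took it.

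Expected counts were rounded, filtered with filterByExpr (minimum count 10, total 15), scaled by TMM and tested over all 18092 kept genes with edgeR 4.0.16 (quasi-likelihood, group as the only term, R 4.3.3), adjusted by Benjamini and Hochberg at 0.05. The standard error is the log2 fold change over the root of F, intervals are 95% and CPM is scaled by TMM. The common biological coefficient of variation was 0.105. Alternatives used DESeq2 1.42.0, limma 3.58.1, other scalings, filters, a replicate block and libraries left out. The edgeR step was tested on simulated data. Intervals for counts of 0 cover counting error only, as the reads carry no molecular identifiers.

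The members and lists were chosen with earlier results of these data known. The text names all 10 members, the 3 genes of lowest unadjusted p in each pathway list, the carbonic anhydrase and Ndrg genes above the filter, the 4 genes most like Car9 (mean of at least 1 CPM), and markers where they stand beside a result. Any other gene, such as Arnt, Hk2, Pfkfb3, Vegfa, Lrp2, Aqp4 and Adgre1, was named after its values were seen.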

Additional observations from a re-analysis of the deposited data

How the results depend on the processing

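No member other than Car9, which was not tested, was called under any of 18 alternatives. The log2 fold change of Car9, whose direction its choice fixes, ran from 0.55 on the log2(TPM + 1) scale to 0.94 without nanoplastic 3. Over all genes, edgeR's count of 0 was 56 (19 higher, 37 lower) with DESeq2, 30 (14 higher, 16 lower) without nanoplastic 1 and vehicle 3, and 0 to 10 when each library was left out (10 without nanoplastic 1, 1 each without nanoplastic 3 and vehicle 3). With each library left out, the count at an unadjusted p under 0.05 ran from 762, without vehicle 2, to 1764, without nanoplastic 3, and it was 1817 without nanoplastic 1 and vehicle 3 and 1873 with no filter. The labels state no pairing of the mice by replicate number. Deviations of same-numbered libraries correlated at 0.0436, -0.023 and 0.103, the last being the highest of all pairs. Nanoplastic 1 correlated best with vehicle 2 (0.0763). With 3 libraries in each group these values cannot decide whether mice were paired. The replicate block gave 0 calls and 1408 genes at an unadjusted p under 0.05, against 1342 without it.

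Fold changes near 0 changed sign, and so did larger ones. With all libraries Car3 had 0.36, Car8 0.52 and Ndrg4 1.79. Library size alone, which moved the median of all genes to 0.05, gave 0.0335 for Vhl, 0.0045 for Egln2, 0.0125 for Egln3, 0.0097 for Car12, 0.0032 for Ndrg2 and 0.0009 for Ndrg3, and gave a median of 0.0069 for the HIF partners. Limma on log2(TPM + 0.1), filtered or not, moved the median of all genes to 0.07, and log2(TPM + 1) moved it to 0.04. On log2(TPM + 0.1) the values were 0.039 for Vhl, 0.055 for Egln2 and 0.035 for Egln3. On log2(TPM + 1) they were 0.033 for Vhl, 0.052 for Egln2 and 0.025 for Egln3. Without nanoplastic 1 and vehicle 3 the values were -0.038 for Hif1a, 0.084 for Car12, -0.50 for Car3, -0.19 for Car8, 0.0004 for Ndrg2 and -0.84 for Ndrg4. The cause was not tested.

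Leaving out each library in turn, the values ran from -0.045 to 0.19 for Hif1a, -0.068 to 0.023 for Vhl, -0.0092 to 0.031 for Egln1, -0.14 to 0.058 for Egln3, -0.23 to 0.044 for Ndrg1, -0.10 to 0.041 for Car12. They ran from -0.17 to 0.28 for Car13, -0.096 to 0.14 for Car14, -0.14 to 0.013 for Car15, -0.66 to 0.70 for Car3, -0.39 to 0.20 for Car5a, -0.014 to 0.077 for Car5b and from -0.098 to 0.78 for Car8, -0.081 to 0.017 for Ndrg2, -0.066 to 0.0029 for Ndrg3, -0.68 to 2.29 for Ndrg4. The median of the HIF partners ran from -0.077, without nanoplastic 3, to -0.018.

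The 95% intervals had a median half-width of 0.28 log2 units. For Hif3a, Epo, Car1 and Gata4 the depth gave too few counts for a test. Over the target lists together, library size alone gave 1 higher and 7 lower at an unadjusted p under 0.05, against 1 and 10. Of the genes named in the text, Tfrc (adjusted p = 0.000166) and Plod2 (adjusted p = 0.0467) passed the adjusted threshold with DESeq2.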

Other observations

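Kidney cell markers outside the hypoxia lists were measured in the same libraries. Podocyte markers summed to 213 to 257.5 CPM in nanoplastic and 236 to 247 CPM in vehicle, endothelial markers to 339 to 378 CPM in nanoplastic and 349.5 to 360 CPM in vehicle, and intercalated cell markers to 146 to 214.5 CPM in nanoplastic and 182 to 199.9 CPM in vehicle. The macrophage markers were all 5 negative (median log2 fold change -0.19), at 82.4 to 87.7 CPM in nanoplastic and 90.4 to 100.1 CPM in vehicle, with none past the adjusted threshold in edgeR and 1 of 5, Adgre1, at an unadjusted p under 0.05 (7.42% of all genes).

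Nt5e, a marker of the interstitial cells that make erythropoietin, measured 154.3, 114.7 and 183.6 CPM in nanoplastic kidneys, against 207.9, 288.1 and 194.3 CPM in vehicle kidneys. Its groups lay apart, lower in nanoplastic (log2 fold change -0.61, SE 0.17, edgeR adjusted p = 0.501), while Pdgfrb, a pericyte marker, overlapped at 62.1, 54.5 and 59.6 CPM in nanoplastic kidneys and 69.6, 60.0 and 53.7 CPM in vehicle kidneys. Proximal tubule cells also express Nt5e. Umod, the thick limb marker, measured 3208, 3303 and 2836 CPM in nanoplastic kidneys and 3961, 4341 and 3410 CPM in vehicle kidneys, apart and lower in nanoplastic (log2 fold change -0.33, SE 0.11, edgeR adjusted p = 0.588). The other genes of the thick limb list overlapped, with log2 fold changes of 0.020 for Slc12a1, -0.041 for Kcnj1 and -0.018 for Cldn16.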
